A study of Drosophila melanogaster with 6 samples.

Results

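The transcripts described here moved the same way in fly testes whether Pcf11 or crowded by cid (cbc) was knocked down. A gene counted as a member when all 3 knockdown libraries with gene counts lay above, or all below, both control libraries in CPM, the reads of a gene per 1e+06 assigned reads after TMM scaling, an edgeR correction for differences in library composition. Of 17807 genes in the count files, 13960 passed a filter of 10 counts or more in 2 or more of the 5 libraries, and 8183 of these (58.6%) were members. 3937 genes (28.2%) lay above both controls and 4246 (30.4%) below them. The genes nearest to this boundary show how little separation it asks for. Syx1A was a member at 26.9 and 24.9 CPM in the controls, 14.5 with Pcf11 knockdown, and 24.9 and 24.5 with cbc knockdown, and CG18476, at 15.6 and 15.8, 9.58, and 15.6 and 15.5 CPM, was just outside.

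Messenger RNA 3' ends are made by cutting the nascent transcript downstream of a poly(A) signal and adding a poly(A) tail. The proteins Pcf11 and cbc (Clp1 in other animals) form cleavage factor II, which joins the cleavage machinery on RNA polymerase II. Pcf11 also binds the tail of the polymerase and helps it to stop transcribing beyond the cut. In the male germ line many genes change their 3' ends as spermatogonia become spermatocytes.

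Poly(A) RNA was sequenced with a directional kit from whole testes of Drosophila melanogaster, with about 150 pairs of testes in each library. The control flies carried the bamGal4 driver and no hairpin, the Pcf11 knockdown added hairpin line VDRC 103710, and the cbc knockdown added line BL 77426. Parents mated for 3 days at 25 °C in every group, and their offspring grew at 29 °C. Counts came from 2 control libraries with 76132580 and 73600622 assigned reads, Pcf11 knockdown library 2 with 79053532, and 2 cbc knockdown libraries with 18954932 and 20510200. The other Pcf11 knockdown library, library 1, entered only with its reads over splice junctions.

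Several features of the design limit what a shared change can mean. Whole testes were sequenced although the driver acts in some germ cells only, so fewer cells of a type and less RNA per cell cannot be told apart. Both knockdowns carried a hairpin and the controls none, so a response to carrying any hairpin and one to loss of the factor cannot be told apart. The cbc libraries were shallower and titled in another style than the other 3 libraries with counts, so genotype and a batch cannot be told apart there. Nothing in the labels ties the libraries of a genotype to separate cultures, and the spread that p-values measure here may be technical. The testis genes betaTub85D, a spermatocyte and spermatid tubulin, and bam, the spermatogonial gene whose promoter drives the Gal4, were detected in every library, at 2220 to 4671 CPM and at 3.84 to 8.60 CPM.

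Each targeted gene was lowest in its own knockdown, and neither was a member. Pcf11 (FBgn0264962, 2R:14860936-14871071, minus strand, BDGP6) stood at 49.9 and 54.7 CPM in the controls, 24.2 with Pcf11 knockdown, and 102 and 97.9 with cbc knockdown. For cbc (FBgn0033842, 2R:13483512-13485391, minus strand) the levels were 52.5 and 56.9, then 63.8, then 4.04 and 3.20 CPM. The knockdown libraries of both genes therefore fell on either side of the controls. Pooled over the 3 knockdown libraries the log2 fold changes were 0.51 ± 0.62 (SE, edgeR adjusted p = 0.59) for Pcf11 and -1.20 ± 1.29 (adjusted p = 0.55) for cbc.

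The comparison asked which transcripts differed between control and knockdown by more than the spread that includes the difference between the 2 knockdowns. It took the 3 knockdown libraries as replicates of 1 group, although 2 were of cbc and 1 of Pcf11. Pooled fold changes therefore weigh cbc more, and the p-values treat the 2 cbc libraries as separate draws. edgeR's quasi-likelihood test of the 3 knockdown libraries against both controls called 997 genes higher (7.14% of those tested) and 830 lower (5.95%) at an adjusted p below 0.05. All of these were members, but membership and the test read the same values, so the count describes the response and is no separate support for it. Library sizes without further scaling left 461 calls higher and 251 lower, which moved the share of calls that were higher from 54.6% to 64.7%. Which libraries entered decided how many genes passed. With either control or cbc library 2 left out no gene passed, although 979, 1001 and 1793 genes were higher and 852, 901 and 1442 lower at an unadjusted p below 0.05. Without cbc library 1, 9 genes were higher and 14 lower, and without the Pcf11 library, when only cbc was compared with control, 5059 were higher and 5241 lower, 1816 of the 1827 calls among them. DESeq2 called 2457 higher and 1549 lower, and 1825 of the 1827 edgeR calls were among them.

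The sizes of the changes were large at both ends. Among genes called higher the median log2 fold change was 1.78, against 0.01 over all genes tested, and among those called lower it was -1.59. A change of at least 2-fold in each knockdown taken alone was reached by 765 of the genes called higher and 664 of those called lower. At least 8-fold in each was reached by 111 and 85. Genes called higher started low: 291 of them (29.2%) were below 1 CPM in control, against 17.7% of all genes tested. Of those called lower 14 (1.69%) were. This contrast is in part built in. A gene barely read in control has little room to be called lower, and can pass the filter through its knockdown libraries alone. The median control level was 5.71 CPM for the genes called higher and 22.8 CPM for those called lower, and 14.7 CPM for all genes tested.

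**Figure D1:**
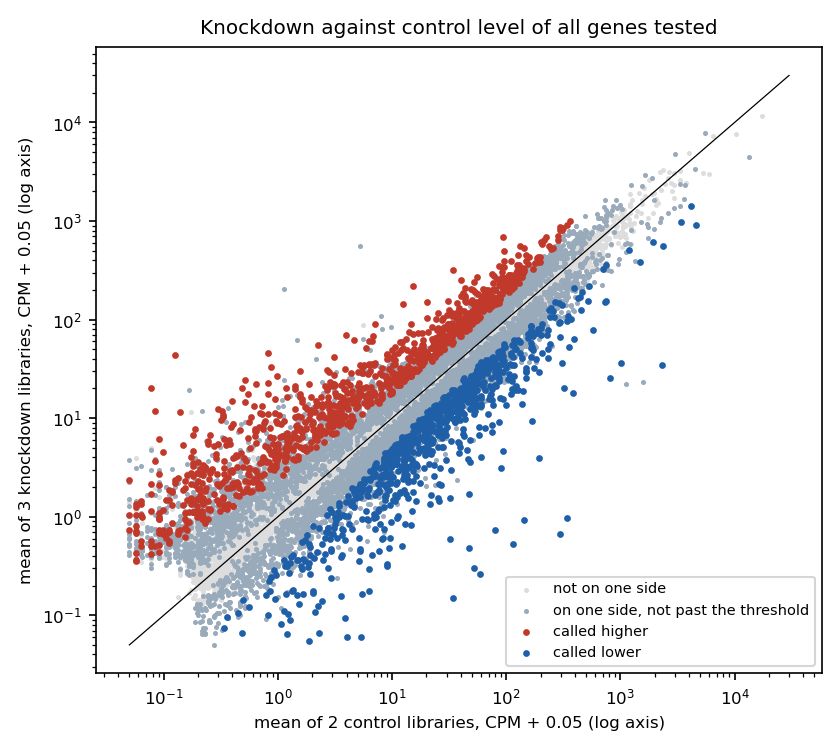
Mean level in the 3 knockdown libraries against the mean of the 2 controls for the 13960 genes tested, both on log axes in CPM plus 0.05. Red points are the 997 genes called higher, blue points the 830 called lower, slate points other members and pale points genes not on one side, and the line marks equal levels. Red points reach further into the low control levels than blue points do, where a gene has little room to be called lower.

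Genes nearly silent in control and well expressed in all 3 knockdown libraries head the response. The noncoding RNA lncRNA:CR43263 (2L:1216854-1217785, minus strand) had 5 and 6 reads in the controls and 3703, 784 and 887 in the Pcf11 library and the cbc libraries. That is 0.0694 and 0.0818 CPM, then 58.8, then 35.6 and 37.8 CPM, with a fitted log2 fold change of 9.14 and a standard error of 0.46 (edgeR adjusted p = 0.0051; ± gives this error below). lncRNA:CR42836 (3R:20139148-20139921, minus strand) had 1 and 3 reads in the controls, too few for a fold change, and 25.0, 17.7 and 17.8 CPM in the knockdown libraries. Pcf11 library 1, which no test used, held 202 and 127 junction reads of these 2 genes. No junction reads of a control entered, so such counts show presence and not a rise.

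Among protein-coding genes the widest separation belonged to Zip89B, a zinc transporter of the ZIP family (3R:16305758-16308700, plus strand). It was at 0.749 and 0.791 CPM in the controls, 33.2 with Pcf11 knockdown, and 50.64 and 53 with cbc knockdown, a log2 fold change of 5.88 ± 0.35 (adjusted p = 0.0062). Every knockdown library was thus far above both controls. Sox21b, a SoxB transcription factor (3L:14112405-14131324, minus strand), was at 0.555 and 0.627, then 17.3, then 23.1 and 26.7 CPM (5.23 ± 0.33, adjusted p = 0.0062). The odorant receptor gene Or46a (2R:10139264-10142074, plus strand) was at 0.305 and 0.245, then 10.5, then 11.5 and 13.5 CPM (5.41 ± 0.32, adjusted p = 0.0062), and its level in cbc did not differ from that in Pcf11 past the threshold (log2 difference 0.25, adjusted p = 0.20). Both are genes with known roles outside the germ line.

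Other leading rises had varied roles. Mos, the fly counterpart of the vertebrate meiotic kinase (2R:12751483-12752936, minus strand), was at 0.416 and 0.573 CPM in the controls, 11.9 with Pcf11 knockdown, and 18.97 and 21.7 with cbc knockdown (log2 fold change 5.14 ± 0.43, adjusted p = 0.0096). Phlpp, a protein phosphatase of the PH-domain family (2L:19059129-19063132, plus strand), went from 2.26 and 2.13 CPM to 31.3, 63.7 and 71.4 (4.66 ± 0.47, adjusted p = 0.012). Elba3, a subunit of the ELBA insulator complex of the early embryo (2L:4687511-4688956, plus strand), went from 4.75 and 4.47 CPM to 45.1, 68.0 and 72.8 (3.75 ± 0.31, adjusted p = 0.0096). In each of these the lowest knockdown library was the Pcf11 one and still stood above both controls.

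At higher levels in control, Clk, a transcription factor of the circadian clock (3L:7763233-7775603, minus strand), was at 99.0 and 88.8 CPM and reached 593 with Pcf11 knockdown and 707 and 774 with cbc knockdown (2.88 ± 0.27, adjusted p = 0.010). Tpl94D, a transition protein of condensing sperm chromatin (3R:22966284-22967842, plus strand), was at 34.1 and 33.8, then 488, then 224 and 234 CPM (3.22 ± 0.46, adjusted p = 0.020). Here the order of the knockdowns turned, with the Pcf11 library about 1 log2 unit higher (cbc minus Pcf11 -1.09, adjusted p = 8.9e-07). Sur, the sulfonylurea receptor of the ABC transporter family, went from 6.58 and 6.83 CPM to 49.6, 74.7 and 81.3 (3.35 ± 0.30, adjusted p = 0.010). Pcf11 library 1 held 777 junction reads of Sur, 2878 of Clk and 1594 of Tpl94D. It held 0 of CG3081, which had 2077 reads in Pcf11 library 2. CG42819, CG10587, CG3081, CG33307, CG12592, Nepl6, Cyp28d2 and dsb were the other leading rises, with log2 fold changes between 3.15 and 5.72.

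**Figure D2:**
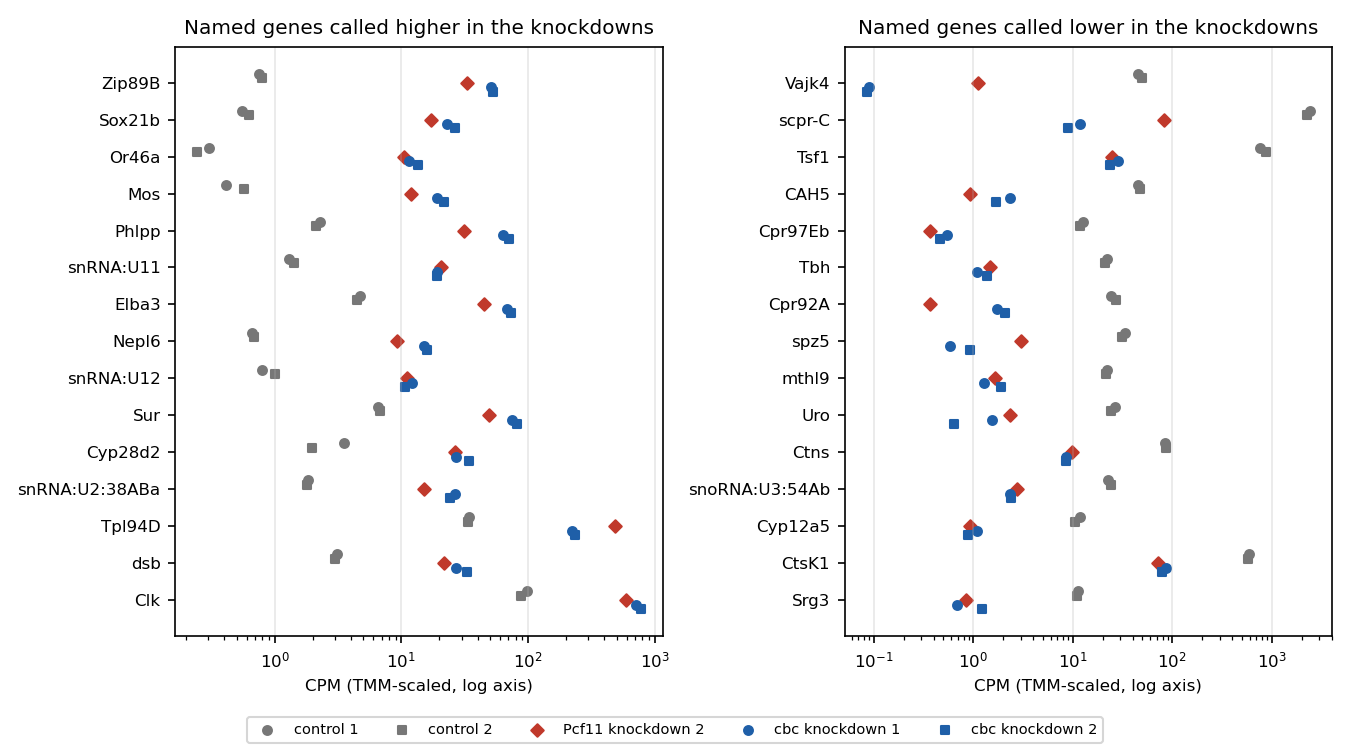
CPM on a log axis in each of the 5 libraries for the 15 genes with a descriptive name that separated most widely in each direction (left called higher, right called lower); circles and squares in grey are the controls, the red diamond is the Pcf11 library and blue marks are the cbc libraries. For Tsf1 and Ctns the 3 knockdown marks nearly coincide, while for scpr-C and Vajk4 the Pcf11 library lies well above the cbc libraries.

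The deepest falls were in genes that the controls expressed well, which the rule of 10 CPM for named genes required. CG12506 (2L:773547-774017, plus strand) was at 335 and 346 CPM in the controls, 1.51 with Pcf11 knockdown, and 0.681 and 0.554 with cbc knockdown, with a fitted log2 fold change of -8.47 ± 0.53 (edgeR, adjusted p = 0.0062). CG13946 (2L:776536-776941) and CG13947 (2L:779173-779655), which follow it on the same strand, were at 31.9 and 36.9 CPM and at 110 and 119 CPM in the controls. Both were at or below 1.06 CPM in every knockdown library, so 3 genes in a row on this strand had few reads left. Leaving out the Pcf11 library gave -9.10 for CG12506, -10.44 for CG13946 and -9.32 for CG13947. scpr-C, a secreted protein of the CAP family (3R:11225520-11226681, plus strand), was at 2409 and 2255, then 82.4, then 11.8 and 8.87 CPM (-6.08 ± 1.15, adjusted p = 0.033, and -7.81 without the Pcf11 library). It has close relatives, so its reads are uncertain.

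Tsf1, the iron carrier transferrin (X:18387084-18390344, plus strand), fell to between 23.5 and 28.5 CPM in all 3 knockdown libraries. It was at 767 and 865 CPM in the controls, 25.1 with Pcf11 knockdown, and 28.5 and 23.5 with cbc knockdown (-4.99 ± 0.24, adjusted p = 0.0051). The cbc minus Pcf11 difference was 0.05 on the log2 scale (adjusted p = 0.74). Ctns, the lysosomal cystine exporter cystinosin (3R:23054410-23058958, minus strand), was at 85.3 and 86.5, then 9.80, then 8.62 and 8.57 CPM (-3.25 ± 0.18, adjusted p = 0.006). The cathepsin gene CtsK1 (3L:13994231-13996571, plus strand) was at 583 and 572, then 71.2, then 85.9 and 79.2 CPM (-2.87 ± 0.21, adjusted p = 0.0079). For none of these 3 did the groups overlap, and for none did cbc and Pcf11 differ past the threshold (adjusted p = 0.17 for Ctns and 0.073 for CtsK1).

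The other named falls had varied roles. Tbh, tyramine beta-hydroxylase, which makes octopamine (X:7995697-8027394, plus strand), was at 22.2 and 21.0 CPM in the controls, 1.46 with Pcf11 knockdown, and 1.09 and 1.36 with cbc knockdown (-4.04 ± 0.24, adjusted p = 0.0062). The tyrosine hydroxylase gene ple was at 33.2 and 32.7, then 5.79, then 6.62 and 5.16 CPM (-2.49 ± 0.20, adjusted p = 0.0095). CAH5, a carbonic anhydrase, went from 45.7 and 47.7 CPM to 0.920, 2.36 and 1.71 (-4.84 ± 0.42, adjusted p = 0.0097). The other leading falls were the uncharacterised genes CG32457, CG16772, CG42870, CG42827, CG17917 and CG10650, with log2 fold changes between -8.68 and -5.60. To these come Vajk4, Cpr97Eb, Cpr92A, spz5 of the Spätzle ligand family, the receptor mthl9, the urate oxidase Uro, snoRNA:U3:54Ab, Cyp12a5 and Srg3, between -6.50 and -3.22. Several of these were deeper without the Pcf11 library, with CG32457 at -11.34, CG42870 at -10.29, Vajk4 at -9.01, CG17917 at -8.17, CG10650 at -6.40 and spz5 at -5.39.

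Small nuclear RNAs, most of them parts of the spliceosome, lay above the controls with 1 exception. The spliceosomal ones tested have no poly(A) tail in their mature form and get their 3' ends from the Integrator complex, while 7SK RNA is made by RNA polymerase III. The annotation's class of small nuclear RNAs was looked at after its values were seen. Of 17 such genes tested, 16 lay above both controls, against 28.2% of all genes, and 13 were called higher. None lay below, and none was called lower. Their median log2 fold change was 3.30, against 0.01 over all genes tested. snRNA:U11, of the minor spliceosome (3L:3893056-3893330, minus strand), was at 1.30 and 1.42 CPM in the controls, 20.4 with Pcf11 knockdown, and 18.97 and 19.1 with cbc knockdown (3.84 ± 0.23, edgeR adjusted p = 0.0062). Its partner snRNA:U12 (3L:16653769-16654006, plus strand) was at 0.791 and 1.01, then 11.03, then 12.2 and 10.6 CPM (3.64 ± 0.28, adjusted p = 0.0084). For neither did the knockdowns differ past the threshold, with cbc minus Pcf11 at -0.10 (adjusted p = 0.52) and 0.05 (adjusted p = 0.81).

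Genes of the major spliceosome RNAs exist in near-identical copies, and only uniquely mapped reads were counted, so the values of single copies are uncertain. The U1 genes snRNA:U1:95Ca, snRNA:U1:95Cb and snRNA:U1:95Cc had log2 fold changes of 3.76, 4.03 and 4.56. Of these snRNA:U1:95Cb had 19 and 6 reads in the controls and a standard error of 0.75. The 3 U2 genes tested lay between 2.44 and 3.58. Of the 3 U4 genes 2 were called, snRNA:U4:39B at 4.15 and snRNA:U4:38AB. The latter had 1 and 5 reads in the controls, too few for a fold change. Among U5 genes only snRNA:U5:34A and snRNA:U5:35D were called, at 1.94 and 3.00, and snRNA:U5:14B was the gene of the class that was not on one side, because the Pcf11 library was at 0.143 CPM against 0.167 and 0.205 in the controls. snRNA:7SKa, of the complex that restrains the elongation kinase P-TEFb, rose by 1.70 ± 0.29 (adjusted p = 0.028), from 1.11 and 1.10 CPM to 3.49, 3.86 and 3.45.

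**Figure D3:**
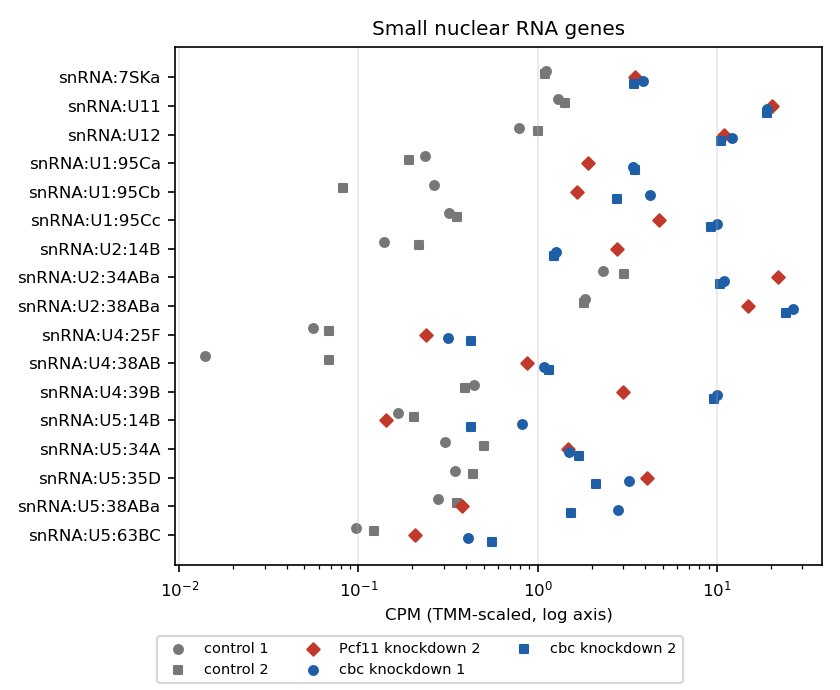
CPM on a log axis in each library for the 17 small nuclear RNA genes tested; grey marks are the controls, the red diamond is the Pcf11 library and blue marks are the cbc libraries. Every gene but snRNA:U5:14B has all 3 knockdown marks to the right of both controls.

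Genes of transcription and RNA 3' end formation were sorted into lists by known role, and each list can be read against 28.2% above, 30.4% below, 7.14% called higher and 5.95% called lower among all genes tested. Of 17 cleavage and polyadenylation genes tested, 2 lay above and 3 below. Wdr33, the CPSF subunit that reads the poly(A) signal, was called higher at 64.5 and 67.3 CPM in the controls, 139 with Pcf11 knockdown, and 175 and 181 with cbc knockdown (1.32 ± 0.22, adjusted p = 0.026). Ssu72, a phosphatase of the polymerase tail, was called lower at 14.5 and 15.9, then 6.24, then 7.44 and 7.84 CPM (-1.08 ± 0.22, adjusted p = 0.037). The list's median log2 fold change was 0.26, and taken alone -0.19 with Pcf11 knockdown and 0.38 with cbc knockdown. Both hairpin targets are in this list. Of 18 elongation and termination genes 6 lay above and 6 below, with 5 called, all higher, and a median of 0.02. The called genes were Rtf1 and hyx of the Paf1 complex, CycT of P-TEFb, Cdk12, and Nelf-E of the pausing factor NELF. Rtf1 was at 92.7 and 97.5, then 231, then 253 and 284 CPM (1.43 ± 0.21, adjusted p = 0.022). Of 12 Integrator genes 3 lay above and 6 below (median -0.25), and asun was the 1 called, at 1.46 ± 0.32 (adjusted p = 0.044).

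Germ line stages moved in different ways. Meiotic division regulators leaned upward: of 14 genes tested 9 lay above and 2 below, 6 were called higher and 1 lower, and the median log2 fold change was 0.84. The kinase Mos is described above. twe, the Cdc25 phosphatase of meiosis, was at 106 and 104 CPM in the controls, 300.2 with Pcf11 knockdown, and 256 and 302 with cbc knockdown (1.45 ± 0.21, adjusted p = 0.021). fzy, the Cdc20 activator of the anaphase-promoting complex, was at 37.7 and 39.0, then 83.5, then 91.2 and 107 CPM (1.29 ± 0.20, adjusted p = 0.023). The kinase polo, cyclin CycB and the cyclin inhibitor rux were also called, at 1.16, 1.10 and 1.09. Cdk1, the kinase that CycB activates, was the 1 called lower, at 34.0 and 35.5, then 17.0, then 22.1 and 18.4 CPM (-0.86 ± 0.20, adjusted p = 0.047). With RLE scaling 3 of the list were called higher and 1 lower.

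Spermatocyte transcription regulators leaned the other way, with 2 of 16 above, 7 below, 4 called, all lower, and a median of -0.25. aly and sa, which switch on the spermatocyte and spermatid genes, were called lower. So were Nxt1 and Marf1, which the list also holds but whose role in spermatocyte transcription is not established here. For aly the levels were 41.01 and 44.97 CPM in the controls, 22.0 with Pcf11 knockdown, and 17.5 and 16.2 with cbc knockdown (-1.21 ± 0.21, adjusted p = 0.028). With unscaled library totals none of the 4 passed. Spermatogonial genes were divided, 7 of 14 above and 4 below (median 0.16). That list also held fzo, a spermatid gene described below, as 1 of the 7 above and 1 of the 2 called higher. mei-P26, a translational regulator of the end of spermatogonial divisions, was called higher at 1.34 ± 0.21 (adjusted p = 0.023), and aub, a piRNA-binding Argonaute, lower at -1.67 ± 0.22 (adjusted p = 0.018).

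Late genes were counted in 5 lists. Of 23 spermatid differentiation genes 2 lay above and 4 below, with fzo, the mitofusin of the spermatid nebenkern, called higher at 1.47 ± 0.34 (adjusted p = 0.049) and Mst84Db lower at -1.77 ± 0.31 (adjusted p = 0.029). The list's medians were 0.32 in the Pcf11 library and -0.93 in cbc, each against the same controls. Among 10 sperm chromatin genes 3 lay above and 0 below, and Tpl94D and Mst27D were called higher. The medians of these 10 were 0.61 in the Pcf11 library and -0.38 in cbc. Their sum was 5800 and 5520 CPM in the controls, 8310 with Pcf11 knockdown, and 3910 and 3940 with cbc knockdown. Axonemal dynein and tektin genes lay above in 13 of 20 cases and below in 0, with a median of 0.54, yet none passed edgeR's adjusted test. At an unadjusted p below 0.05 it found 4 of them higher and 0 lower, and DESeq2 called 5 higher and 0 lower. Of 16 cup and comet genes 3 lay above and 1 below, and of 11 Y-linked fertility genes 3 lay above and 1 below, with no edgeR call in either list. The medians of these lists were 0.46 and 0.12 in the Pcf11 library, and -0.81 and -0.72 in cbc. Unadjusted, 1 cup and comet gene was higher, and 1 Y-linked gene was higher and 1 lower; DESeq2 called 0 and 1.

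Markers of cyst, hub and muscle cells lay mostly below the controls, and those of the pigment and terminal epithelium went both ways. Of 16 cyst and hub cell genes 0 lay above and 9 below, with a median of -0.57, and the summed level of the list was 566 and 583 CPM in the controls and 278, 404 and 376 CPM in the Pcf11 and cbc libraries. Fas3, the adhesion protein that outlines the hub (2 of the 16 were called), was at 72.0 and 68.8, then 11.01, then 18.7 and 16.6 CPM (-2.19 ± 0.27, adjusted p = 0.015). The ligand hh was at 26.9 and 27.5, then 4.09, then 10.1 and 7.63 CPM (-1.91 ± 0.39, adjusted p = 0.039). eya, a cyst cell nuclear protein, was not on one side, at 57.9 and 61.4, then 50.0, then 60.7 and 53 CPM. With unscaled library totals neither call remained. Of 9 pigment and terminal epithelial cell genes 3 lay above and 4 below, with w called higher, MtnA and Ggt-1 lower, and a median of 0.34. Taken alone, their median was -0.48 with Pcf11 knockdown and 0.52 with cbc knockdown. Their sum, mostly MtnA, was 2540 and 2490 CPM in the controls and 788, 890 and 765 CPM in the knockdown libraries.

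Muscle sheath genes were below both controls in 13 of 15 cases, with 1 above, 3 called lower and a median of -0.94. The myosin heavy chain gene Mhc was at 165 and 175 CPM in the controls, 52.6 with Pcf11 knockdown, and 89.2 and 62.9 with cbc knockdown (-1.32 ± 0.27, adjusted p = 0.039). The actin Act57B and the myosin light chain Mlc1 were the others called. Calls in this list numbered 6 with RLE scaling and 0 with library totals, while 12 or 13 genes lay below under each. The list's sum was 1800 and 1770 CPM in the controls and 1190, 1150 and 1100 in the knockdown libraries, and the share of this tissue in the dissections was not measured.

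Markers of tissues near the testis or outside it were detected, with sums in the controls from 41.1 CPM for the ejaculatory duct to 415 CPM for haemocytes. Fat body genes lay above in 8 of 10 cases and below in 0 (median 1.20), and Fbp1, Lsp2 and Lsp1gamma, a receptor and 2 storage proteins of the larval fat body, were called higher. Lsp2 was at 2.94 and 3.46, then 11.8, then 18.2 and 20.7 CPM (2.40 ± 0.34, adjusted p = 0.020). The fat body sum was 92.8 and 82.6 CPM in the controls and 126, 137 and 150 in the knockdown libraries. Haemocyte markers fell in sum, from 393 and 415 CPM in the controls to 106 with Pcf11 knockdown and 279 and 263 with cbc knockdown. Of 7 tested, 1 lay above and 3 below (median -0.65). Pxn and Hml were called lower, at -2.46 ± 0.46 (adjusted p = 0.033) and -1.25 ± 0.23 (adjusted p = 0.032). NimC1 was called higher, at 1.73 ± 0.40 (adjusted p = 0.048), from 0.486 and 0.545 CPM to 1.38, 1.59 and 2.22. Pxn, a basement membrane peroxidase, was at 163 and 188, then 16.6, then 49.2 and 30.1 CPM. Of 27 neuronal genes 10 lay above and 8 below, with 4 called higher, among them DAT and brp, and 3 lower, among them ple and Snap25. With library totals edgeR called 0 neuronal genes higher and 2 lower, 1 fat body gene higher, and no haemocyte gene. The neuronal sum was 361 and 344 CPM in the controls, 348 with Pcf11 knockdown, and 1180 and 1290 with cbc knockdown. Accessory gland genes lay above in 1 of 14 cases and below in 0, and ejaculatory duct genes below in 1 of 7. The part of tissue mix in any of these values was not tested.

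Chemosensory receptor genes tested, which act in sensory neurons, lay mostly above the controls, at low levels. Of 40 ionotropic receptor genes tested, 28 lay above both controls and 0 below, and 8 were called, all higher, with a median log2 fold change of 2.10. Of 28 odorant receptor genes 15 lay above and 2 below, with 6 called higher (median 1.77). Of 32 gustatory receptor genes 18 lay above and 2 below, with 3 called higher and 1 lower (median 1.63). Counts of calls in the 3 families were 5, 2 and 1 higher with library totals, and no median changed sign with either other scaling.

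In these families levels stayed small, and the median log2 fold change of the ionotropic receptors was 0.86 with Pcf11 knockdown and 2.50 with cbc knockdown. For the odorant receptors the medians were 0.38 and 2.14, and for the gustatory receptors 0.80 and 2.08, each against the same controls. The summed level of the ionotropic receptors was 42.7 and 41.8 CPM in the controls, 80.0 with Pcf11 knockdown, and 191 and 222 with cbc knockdown. The sum of the odorant receptors was 15.1 and 16.0, then 36.8, then 66.1 and 76.5 CPM. That of the gustatory receptors was 43.4 and 42.5, then 36.9, then 74.7 and 82.8 CPM, so the Pcf11 library lay below both controls although 18 of its genes lay above. Ir51a, annotated as a pseudogene, was at 0.153 and 0.109, then 2.75, then 7.76 and 9.59 CPM (5.65 ± 0.76, adjusted p = 0.018). The bitter taste receptor gene Gr66a was at 0.250 and 0.136, then 3.95, then 6.90 and 6.78 CPM (4.91 ± 0.52, adjusted p = 0.012). Since 26 of 66 ionotropic receptor genes failed the filter on low counts, a gene silent everywhere could not be counted. The shares hold only for the genes tested. A gene with few control reads could enter through the knockdown libraries alone. Ir76b did so, with 5 and 7 control reads against 64, 73 and 68 in the knockdown libraries. Such entries raise the shares above and the medians, by an amount that was not tested.

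Developmental regulators of the soma and genes of the eye held further rises. Of 45 transcription factor genes of somatic development 20 lay above and 10 below, with 7 called higher and 1 lower (median 0.67). Taken alone, the list's median was 0.07 with Pcf11 knockdown and 0.62 with cbc knockdown, each against the same controls. The homeobox gene pb was at 2.89 and 2.75, then 10.7, then 25.3 and 27.3 CPM (2.90 ± 0.49, adjusted p = 0.027). The other genes called higher were lab, slou, Sox21a, Sox21b, ap and ey, and exd, a Hox cofactor, was called lower at -1.28 ± 0.26 (adjusted p = 0.039). Of 14 photoreceptor genes 6 lay above and 4 below, and the opsin genes ninaE, Rh2, Rh4 and Rh6 were called higher, while the channel gene trp was called lower at -1.92 ± 0.31 (adjusted p = 0.026). The opsin with the highest level, Rh4, was at 5.76 and 6.22, then 16.2, then 11.6 and 11.6 CPM. The photoreceptor sum was 92.5 and 87.8 CPM in the controls, 120 with Pcf11 knockdown, and 66.7 and 70.7 with cbc knockdown. With library totals edgeR called 0 photoreceptor genes higher and 3 of the transcription factors, against 11 of the latter with RLE scaling.

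Glutathione S-transferase and immune genes lay mostly below, and other detoxification families went both ways. Of 34 glutathione S-transferase genes 6 lay above and 23 below, with 10 called, all lower, and a median of -0.68, against 3 calls with library totals. GstD3 was at 112 and 88.8 CPM in the controls, 16.0 with Pcf11 knockdown, and 13.3 and 11.5 with cbc knockdown (-2.88 ± 0.23, adjusted p = 0.009), though its reads may be shared with neighbouring copies of the GstD cluster. Cytochrome P450 genes went both ways, 25 of 79 above and 22 below, with 6 called higher and 7 lower. UDP-glycosyltransferase genes were evenly divided, 7 of 28 above and 7 below, with 1 called, higher, and a median of 0.05. Cyp4ae1 was at 9.39 and 8.63, then 0.238, then 0.227 and 0.384 CPM (-5.01 ± 0.35, adjusted p = 0.0071). Of 13 antimicrobial and immune recognition genes 1 lay above and 7 below, and PGRP-SA, which recognises bacterial peptidoglycan, was at 12.2 and 13.2, then 2.49, then 2.86 and 2.52 CPM (-2.28 ± 0.23, adjusted p = 0.011). The metallothionein MtnA was at 2389 and 2331 CPM in the controls and 500, 649 and 512 in the knockdown libraries (-2.09 ± 0.28, adjusted p = 0.018).

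Small RNA genes and the marker gene w also changed. The siRNA endonuclease gene Dcr-2 was at 168 and 175 CPM in the controls, 32.5 with Pcf11 knockdown, and 63.8 and 49.6 with cbc knockdown (-1.82 ± 0.31, adjusted p = 0.028). AGO2, which carries siRNAs, was called lower at -0.93 ± 0.21 (adjusted p = 0.044). Of 21 piRNA genes 6 lay above and 9 below, with moon and zuc called higher and aub lower. moon, which lets polymerase start on piRNA clusters in the ovary, was at 1.62 and 1.39, then 10.99, then 19.5 and 22.3 CPM (3.54 ± 0.41, adjusted p = 0.014). The pigment transporter gene w, which transgenes often carry as a marker, was at 73.2 and 82.8, then 257, then 174 and 188 CPM (1.40 ± 0.26, adjusted p = 0.033).

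Genes for ribosomes and respiration lay low in small steps. Of 85 core ribosomal protein genes 0 lay above and 61 below, with 7 called lower and a median of -0.50. This count rested on the scaling, since 27 lay below and 1 above with library totals (median -0.36). Mitochondrial ribosomal protein genes lay above in 12 and below in 36 of 71 cases, with 9 called lower (median -0.39), and respiratory chain genes above in 7 and below in 32 of 79, with 5 called lower and 1 higher (median -0.34). With library totals 1, 1 and 2 genes of these 3 lists were called lower. RpS18 was at 297 and 313, then 121, then 163 and 134 CPM (-1.13 ± 0.22, adjusted p = 0.035). Of 46 proteasome genes 9 lay above and 13 below, and of 16 heat shock genes 3 above and 2 below, with no heat shock gene called by edgeR (3 higher and 1 lower at an unadjusted p below 0.05, and 6 higher and 1 lower by DESeq2).

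**Figure D4:**
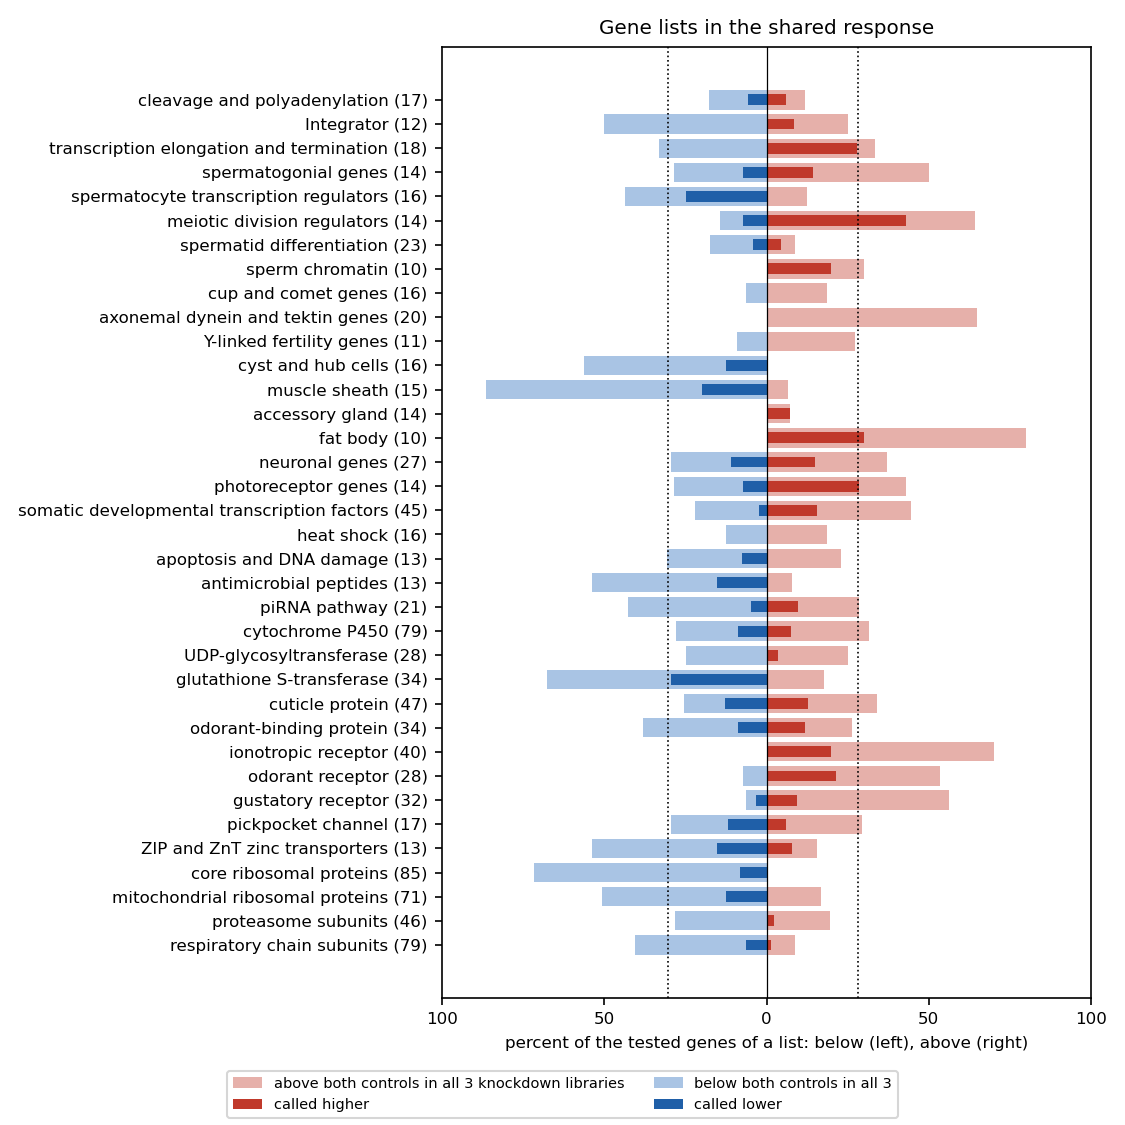
Share of the tested genes of each list, with their number in brackets, that lay below both controls (blue, to the left) or above them (red, to the right), and in darker colour the share called; dotted lines mark 30.4% below and 28.2% above among all genes tested. Muscle sheath genes and core ribosomal proteins reach furthest left, and fat body genes and ionotropic receptors furthest right.

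The size of a shared change often differed between the knockdowns. cbc and Pcf11 libraries were compared with each other in a fit with 3 genotypes, in which the Pcf11 library was assumed to vary like the others. Of all genes tested, cbc was higher in 42.2% and lower in 29.7% (5890 and 4153 genes, edgeR adjusted p below 0.05). This balance depended on scaling and tool: it was 5029 against 4633 with RLE scaling, 8514 against 2452 with library totals, and 4114 against 4216, with more genes lower, by DESeq2. Among genes called higher in the pooled comparison 564 (56.6%) differed between the knockdowns, and among those called lower 410 (49.4%), against 71.9% of all genes tested. That gap is built in, since the pooled test counts the difference between knockdowns as error. A difference of at least 2-fold was found in 18.9% of genes called higher and 13.6% of those called lower.

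Among called genes that differed, cbc was more often the higher of the 2 knockdowns in both directions. So it was over all genes tested, at 5890 genes against 4153, a balance that depended on scaling and tool. The counts below restate this as distance from control. Of the called rises that differed, cbc was further from control in 412 and Pcf11 in 152. Of the called falls that differed, cbc was further in 117 and Pcf11 in 293. With RLE scaling these counts were 328 and 220 for rises and 160 and 213 for falls. With library totals they were 777 and 19 for rises and 42 and 566 for falls, so the order was the same under all 3 scalings and its size was not. prt, a vesicular transporter gene picked after its values were seen, shows how a member could miss the test: at 5.52 and 4.95 CPM in the controls, 24.8 with Pcf11 knockdown, and 772 and 865 with cbc knockdown, its log2 fold change was 6.72 with an adjusted p of 0.058.

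Pcf11 knockdown library 1 entered neither the rule nor the test, but it can be set only against the same controls that did. Its 10381354 junction reads were summed over the introns of each gene, scaled per 1e+06, and set against the mean control CPM on the log2 scale. The median was -0.32 over 11268 genes with annotated introns, 0.72 over 837 genes called higher and -1.44 over 708 called lower. Genes called higher were chosen for low control levels and genes called lower for high ones, which by itself moves such a ratio this way, so these values describe library 1 and support nothing. Number and length of introns differ between genes and were not allowed for.

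Position in the genome was outside the rule. Of genes called higher, 205 (20.6%) had another gene ending within 1000 bases upstream on the same strand whose control level was above their own, against 12.9% of all genes tested and 13.4% of those called lower. Because low genes more easily have a higher neighbour, the shares were set beside each other within bands of control level. Below 1 CPM the share was 33.7% of 291 genes called higher against 21.0% of all, and from 1 to 10 CPM it was 24.7% against 17.1%. From 10 to 100 CPM it was 10.1% against 10.7%, and at 100 CPM and over 5.63% of 71 genes against 2.50%. For genes called lower the shares in the 4 bands, from the lowest, were 7.14% (of 14 genes), 17.6%, 14.3% and 1.82%. An upstream gene within this distance at any level was found for 32.1% of genes called higher, 30.6% of those called lower and 28.5% of all.

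Of the 22 rises named for their separation 9 had such a neighbour, and 2 of the 24 falls. Zip89B begins 989 bases after gish, a casein kinase gene, which was not a member, at 728 and 612 CPM in the controls, 710.1 with Pcf11 knockdown, and 469.9 and 495 with cbc knockdown. CG10587 begins 99 bases after CG12983, which lay above both controls, at 377 and 337, then 1359, then 469.5 and 530 CPM, and did not pass the test (adjusted p = 0.20). The others were CG42819, CG12592, Mos, Phlpp, Elba3, Sur and Cyp28d2. Reads that run from one gene into the next are counted to the second gene on the same strand, and their part in these levels was not tested.

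Chromosome, length and exon number set the members little apart. The genes called higher made up between 6.23% and 8.51% of the tested genes on 2L, 2R, 3L, 3R, 4 and X. Median exonic length was 2016 bases in genes called higher, 1646 in those called lower and 1674 over all genes, and the median number of exons was 3 in each. Protein-coding genes made up 83.2% of the genes called higher, 91.4% of those called lower and 87.0% of all. Of 1184 long noncoding RNA genes tested 100 were called higher and 53 lower, with a median of -0.06 that turned to 0.01 with RLE scaling, and of 385 genes annotated as antisense RNAs 35 were called higher and 9 lower.

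Reads on the strand opposite to a gene were counted separately, with library sizes taken from the sense counts. Of 8524 genes with enough opposite-strand reads 1139 (13.4%) were called higher and 299 (3.51%) lower. The median log2 fold change over all 8524 was 0.39, so the balance of calls goes with a shift of the whole set. Opposite-strand reads of a gene can be sense reads of an overlapping gene, and in the controls many must be. There they made up 3.1% and 3.08%, but reads on no gene's sense strand only 1.36% and 1.35%. In the cbc libraries these shares were 3.52% and 3.63% against 2.62% and 2.86%, so the mix may differ between groups. The opposite-strand calls are therefore not independent of the sense counts. A gene facing the tested one with its 3' end within 1000 bases was annotated for 34.6% of those called higher, against 26.2% of all tested and 21.1% of those called lower. The sense level gave no such lean: of 1047 called higher whose sense level was tested, 287 lay above both controls, 342 below and 418 on neither side.

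Single loci show the form this took, here the 10 with the widest separation, picked after their values were seen. Opposite to Adgf-C, a deaminase-related growth factor gene (3R:13706757-13709129, plus strand), there were 0.125 and 0.0818 CPM in the controls, 15.4 with Pcf11 knockdown, and 18.8 and 20.8 with cbc knockdown (log2 fold change 7.44 ± 0.44, edgeR adjusted p = 0.0025). The gene facing it, Argp, ends 29 bases away and was itself called higher, at 1.94 and 2.15, then 16.1, then 8.03 and 10.1 CPM (adjusted p = 0.024). Sense reads of Adgf-C stayed between 0.508 and 1.11 CPM in all libraries.

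At Rift (3R:31806867-31810186, minus strand) the strands moved in opposite ways. Opposite-strand reads went from 1.53 and 1.06 CPM to 33.8, 15.02 and 17.0, while sense reads went from 44.8 and 42.5 CPM to 11.5, 8.94 and 9.12. CG1971, which faces Rift and ends 97 bases away, was not a member, at 150.0 and 131 CPM in the controls, 138 with Pcf11 knockdown, and 69.0 and 74.0 with cbc knockdown. Opposite to bchs, whose facing gene CG9016 ends 99 bases away, reads went from 1.60 and 1.02 CPM to 25.8, 16.2 and 16.6, and the sense reads of bchs were at 25.6 and 27.6, then 28.5, then 35.5 and 40.0 CPM. Opposite to yellow-k they went from 16.3 and 15.5 CPM to 165, 261 and 283, where the overlapping asRNA:CR43159 is annotated and was called higher at 3.84 (adjusted p = 0.010). Opposite to asRNA:CR43467 lie the reads of Or46a.

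**Figure D5:**
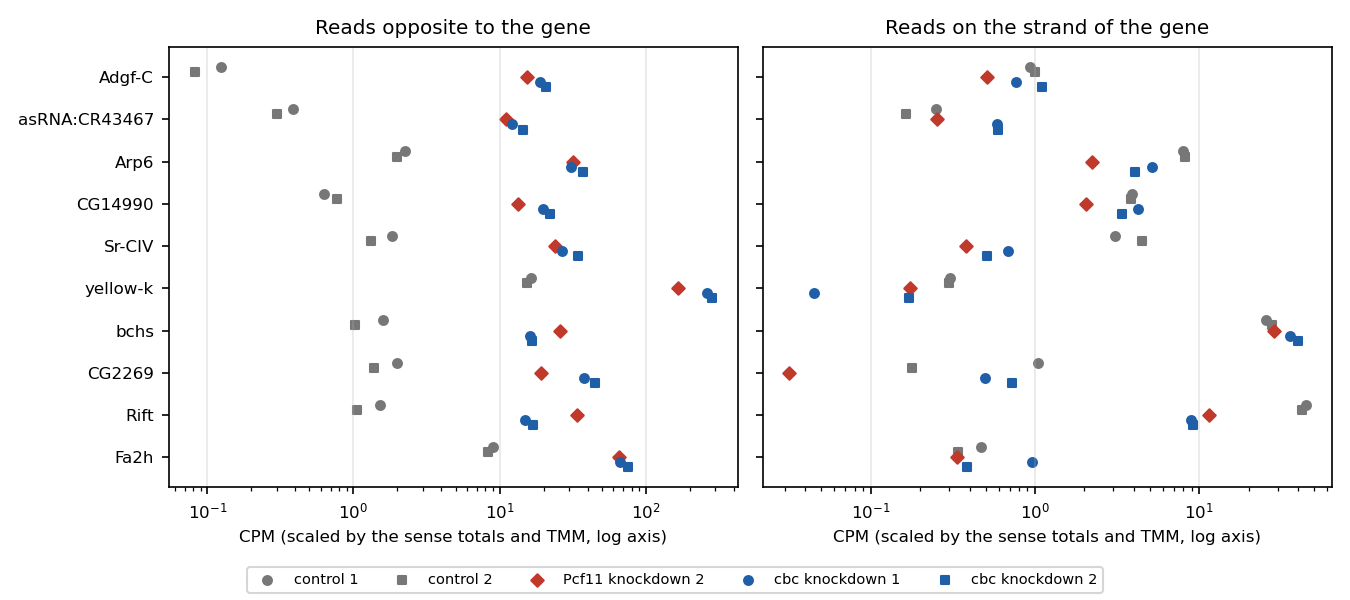
CPM on log axes in each library for the 10 genes whose opposite-strand reads separated most widely, with reads opposite to the gene on the left and reads on its own strand on the right; grey marks are the controls, the red diamond is the Pcf11 library and blue marks are the cbc libraries. On the left all knockdown marks lie to the right of both controls, and on the right only Rift, Sr-CIV, Arp6 and yellow-k have all of them to the left.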

How the data were processed

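Poly(A) RNA of whole testes was analysed as gene counts in 5 libraries and junction reads in 1. The deposited counts are STAR gene counts of uniquely mapped reads per gene, not normalized, per the layout of the files. The submitters' processing notes name the builds BDGP6 and dm6 and the tools STAR, Trim Galore, deepTools and SAMtools, without versions. The sense column was used, and 4 rows of totals stayed out. In the controls, the Pcf11 library and the cbc libraries, reads on no gene's sense strand made up 1.36% and 1.35%, 1.53%, and 2.62% and 2.86%. Opposite-strand reads made up between 3.08% and 3.63% of the stranded counts. Of 17807 gene identifiers 17710 matched a BDGP6 annotation, which may be another release than the one counted with. The 2 libraries of a genotype differed by more than sampling noise (chi-square per degree of freedom 56.0 for control and 8.41 for cbc).

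Genes with 10 or more counts in 2 or more libraries were fitted with edgeR 4.0.16 in R 4.3.3 (TMM scaling, quasi-likelihood test, two-sided, Benjamini-Hochberg over all genes tested, threshold 0.05), knockdown against control with 3 residual degrees of freedom and a common dispersion of 0.137. A second fit had the 3 genotypes as groups. DESeq2 1.42.0 was an alternative. Alternatives covered scaling, filter, depth, replicate block, threshold and each library left out. The test was checked on simulated counts.

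Named genes were both targets, the 12 widest gaps each way among called members of at least 10 CPM (nearest knockdown library to nearest control, log2 of CPM plus 0.5), further genes up to 15 with a descriptive symbol each way, and up to 3 called members of each of 44 lists; other names were chosen after their values were seen. In the lists 35 names matched no symbol. Members, lists and rules were chosen with earlier results of these data known. Promoter and poly(A) signal sequences were not analysed here. A count of 3 reads, the floor, was 0.0409 to 0.136 CPM, covering counting error only.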

Additional observations from a re-analysis of the deposited data

How the results depend on the processing

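The 997 higher and 830 lower calls moved to 461 and 251 with library totals, 4 and 7 with the replicate block, 37 and 46 at a threshold of 0.01, 4781 and 5569 with 3 genotypes as groups, and 2457 and 1549 with DESeq2. Leaving out 1 library gave 0 to 5059 higher and 0 to 5241 lower calls, and 3904 to 5983 members above. Opposite-strand calls (1139 and 299) moved to 616 and 165 with library totals and 446 and 101 with the block. They were 650 higher at a filter of 50 counts and 195 lower after thinning, and 0 to 3142 higher and 0 to 1441 lower with 1 library left out. Genes lower in cbc than in Pcf11 numbered 2452 with library totals, against 4153. The causes were not tested, except that fewer samples or genes entered some fits. Pcf11 itself turned from 0.51 to -0.09 with 3 genotypes as groups (adjusted p = 0.31). No called gene changed direction in any setting, and of 1815 alternative values of 131 named values past the threshold 808 missed it.

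The labels number the libraries, but only control and cbc share both numbers. Their same-numbered libraries did not deviate together (r = -0.0861 over 13960 genes). This value leaves out the Pcf11 library and cannot tell whether libraries were handled in pairs. Nor do the labels, and with the replicate block only 4 genes were called higher and 7 lower.

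With 1 Pcf11 library and 2 of each other group, calls rest on few libraries, and at the cbc depth 3 reads are 0.128 to 0.136 CPM. Without the Pcf11 library no comparison of cbc with Pcf11 exists. Motif counts in promoters and poly(A) signals, planned as descriptions, were not run.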
